A study of Mus musculus with 15 samples.

Results

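A set of 10 transcription factor genes that cells switch on early after a stimulus was followed in RAW264.7, a macrophage-like line from mouse. The cells had received a glucocorticoid before lipopolysaccharide (LPS), the bacterial cell-wall component that sets off macrophage inflammation. The genes were Fos, Fosb, Fosl1, Fosl2, Jun, Junb, Jund, Egr1, Egr2 and Atf3, taken by exact gene name from the array annotation. They are 10 of the 19400 genes whose signal was high enough to be tested. Expression was measured on 15 one-colour Agilent arrays, 3 for each of 5 groups: dexamethasone (DEX), fluticasone furoate (FF), VSG158, VSG159 and vehicle. Steroids were given at 100 nM for 1 h before LPS, and LPS was given at 1 ug/ml for 16 h. VSG158 and VSG159 are known here by code name alone. The vehicle labels name only the solvents, ethanol and DMSO, and the shared protocol gives LPS to the cells without naming an exception, so vehicle is taken here as LPS with solvent. A group without LPS was not analysed here, so the values compare steroid with vehicle at 16 h and do not measure the LPS response itself. The series text speaks of duplicates while the labels number 3 replicates a group. Nothing says that replicates were separate cultures, so the p-values measure the spread between these samples, which may be technical.

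Fos and Jun proteins pair through a leucine zipper to form AP-1, a dimer that binds DNA at AP-1 sites. Jun-family proteins can pair with each other or with a Fos-family protein, whereas Fos-family proteins need a partner. Egr1 and Egr2 are zinc finger factors, and ATF3 is a zipper protein of the ATF/CREB family that often acts as a repressor. In macrophages all 3 families answer Toll-like receptor signals through MAP kinases, serum response factor (SRF) and its cofactors, and the ligand-bound glucocorticoid receptor can repress AP-1 by contacting it directly. Many of these genes are transcribed within minutes of a stimulus and silenced again soon after.

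The deposited arrays carried 16 probes for the 10 genes, each of 60 bases, of which 13 were tested. The 3 untested probes, 1 of Fosb and 2 of Junb, were well above background on at most 2 arrays. Fosl2, Junb and Jund had more than 1 tested probe, and the results below turn on how far those probes moved apart, so their sequences are shown first. The Junb and Fosl2 probes that start at bases 707 and 738 of their transcripts are given whole, and the others by their first 30 of 60 bases, all in lower case and 5′ to 3′ as in the scanner files, at mm9 positions from the same files.
Junb A_51_P159194, from base 1745 of the transcript, chr8:87500843-87500902, minus strand: ttcgtgtctaaagtctattttaagatgtgt
Junb A_55_P2011106, from base 707, chr8:87501881-87501940, minus strand: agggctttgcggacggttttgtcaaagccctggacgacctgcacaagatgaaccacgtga
Jund A_55_P2892246, from base 2663, chr8:73224302-73224361, plus strand: tgcgtgttgagtgtgtgtttccttgtgttg
Jund A_51_P357744, from base 2797, chr8:73224436-73224495, plus strand: ttttgctacgagtccacattcctgttccgt
Fosl2 A_55_P2803815, from base 5726, chr5:32460076-32460135, plus strand: gctatggaggaaagaacatattaaaaactt
Fosl2 A_51_P507242, from base 738, chr5:32455088-32455147, plus strand: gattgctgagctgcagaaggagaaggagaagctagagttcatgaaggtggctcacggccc

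Atf3, Egr2 and Jun fell with all 4 steroids, as did Fosb, Fosl1 and Fosl2. Stretches before the transcription starts of Atf3, Egr2 and Jun are shown. The promoter table used here (RefSeq, GRCm38.p6) holds no window for Egr1 or Fosl1, so their promoters were not searched. For 8 of the 10 genes it lists 300-base windows, from 250 bases before to 50 after a start, with 5 starts for Egr2. They were searched on both strands for the AP-1 site TGACTCA, the cyclic AMP response element TGACGTCA, its variant TGACATCA, the EGR site GCGTGGGCG and the CArG box, the site of SRF. Of the 32851 promoters searched, 5.2%, 1.79%, 3.62%, 0.612% and 1.63% held them, in that order. The matches in these windows were the variant element in Jun, at -45 to -38 from the start, and CArG boxes in Egr2. Bases outside the windows were not searched. No other variant of the element was searched, so the match does not set Jun apart from genes that hold other variants. Capitals mark the match, and the Atf3 stretch held none of these letters in its window. A match is a description of the letters and does not show binding.
Jun, 120 bases before the start, chr4:95052223-95052342, minus strand: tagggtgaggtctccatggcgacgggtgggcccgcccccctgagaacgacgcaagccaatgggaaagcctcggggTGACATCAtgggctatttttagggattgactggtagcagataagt
Atf3, 120 bases before the start, chr1:191183334-191183453, minus strand: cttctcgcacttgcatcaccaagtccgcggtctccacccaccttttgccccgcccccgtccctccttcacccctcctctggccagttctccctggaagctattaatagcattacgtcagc
Egr2, upstream CArG box, chr10:67537484-67537513, plus strand: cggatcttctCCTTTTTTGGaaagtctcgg
Egr2, downstream CArG box, chr10:67537787-67537816, plus strand: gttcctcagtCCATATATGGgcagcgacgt

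The arrays lay on 2 slides, as their headers record. Slide 1 held the 3 VSG158 arrays, VSG159 replicates 1 and 2 and the 3 vehicle arrays. Slide 2 held VSG159 replicate 3, the 3 FF and the 3 DEX arrays, so DEX and FF shared no slide with vehicle. Each array's 75th percentile of processed signal lay between 695 and 1223, 39.6% to 50.4% of spots were well above background, and arrays of 1 group correlated at 0.964 to 0.991. The number of arrays limits the precision. The glucocorticoid receptor targets Fkbp5 and Hp rose with every steroid, Fkbp5 by 3.50, 3.50, 3.60 and 3.37 and Hp by 5.94, 7.11, 7.16 and 6.99 (log2, DEX, FF, VSG158 and VSG159). Of 10 macrophage markers, 9 were well above background on all 15 arrays and Mrc1 on 10. Of 17 markers of other cells, Cd3e, Dcn, Elane and S100a8 were above background on all arrays and the other 13 on 6 or fewer. Summed signal of the 4 neutrophil markers, as a multiple of the array's 75th percentile, was 144 to 188 with DEX, 83.1 to 124 with FF, 121 to 186 with VSG158, 111 to 173 with VSG159 and 132 to 142 with vehicle. The 4 fibroblast markers summed to 0.265 to 0.366, 0.379 to 0.590, 0.325 to 0.495 and 0.390 to 0.442 with the 4 steroids in that order and 0.231 to 0.282 with vehicle. The 3 T cell markers summed to 1.74 to 3.56, 0.948 to 1.67, 0.953 to 4.0 and 0.818 to 3.36 with the steroids in that order and 0.837 to 1.28 with vehicle, every DEX array lying above every vehicle array. Their part in the results was not tested.

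Most of the 10 factors were lower with steroid than with vehicle, Fos did not pass the test, and Egr1 alone was called higher. Values are log2 signal relative to the array's 75th percentile, a gene is represented by its brightest tested probe, and a change is called when limma's Benjamini-Hochberg adjusted p over all tested probes is under 0.05. With DEX 6 of the 10 genes fell and 1 rose, where 23.3% of all genes were called lower and 23.4% higher. With FF 8 fell and 0 rose, against 21.5% and 21% of all genes. With VSG158 8 fell and 1 rose, against 24.8% and 19.9%, and with VSG159 8 fell and 0 rose, against 25.1% and 19.2%. With FF and with VSG159, the 8 genes at an unadjusted p under 0.05 in limma were the 8 that fell. The median change of the 10 genes was -0.80 under DEX, -0.98 under FF, -1.07 under VSG158 and -1.03 under VSG159, beside 0.03, -0.05, -0.06 and -0.06 over all genes. The F test over the 5 groups called 9 of the 10 genes, the exception being Fos, and 45.4% of all genes. With slide as a fixed block, 7, 4, 9 and 6 genes were called against vehicle, in place of 7, 8, 9 and 8 (DEX, FF, VSG158 and VSG159). Only VSG159 lay on both slides, so the slide term rests on its replicate 3 against its replicates 1 and 2. Every comparison across slides in that fit, here and below, therefore moves with this 1 array. The 7 with DEX were not the same 7 genes, since Egr1 was lost (adjusted p 0.163) and Jund was called higher, at 0.81 (0.0377). With slide and the position on it as terms, limma called 0, 1, 7 and 4, with 1 gene at an unadjusted p under 0.05 for DEX; arrays of a group lie side by side, so position and group can hardly be told apart there. In cells measured in bulk, fewer cells that express a gene and less of its RNA per cell cannot be told apart.

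**Figure D1:**
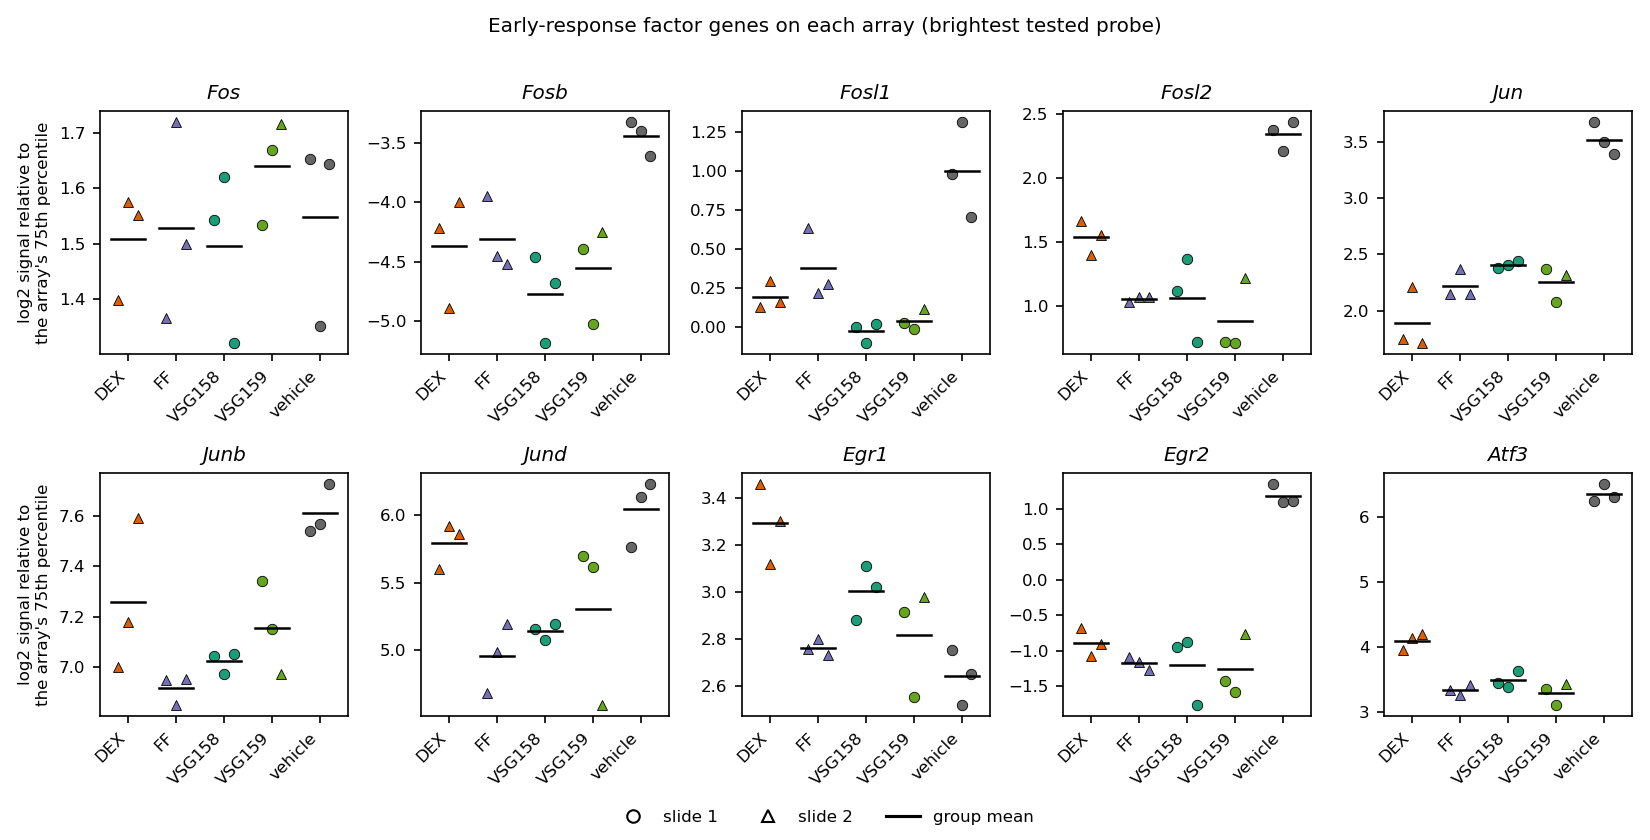
Log2 signal relative to the array's 75th percentile for the brightest tested probe of each of the 10 genes, 1 panel a gene with its own vertical axis; points are arrays (circles on slide 1, triangles on slide 2) and bars are group means of 3. Atf3, Egr2 and Jun show all 12 steroid arrays below all 3 vehicle arrays, Fos shows overlap throughout, and the VSG159 arrays of Jund fall apart by slide.

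**Figure D2:**
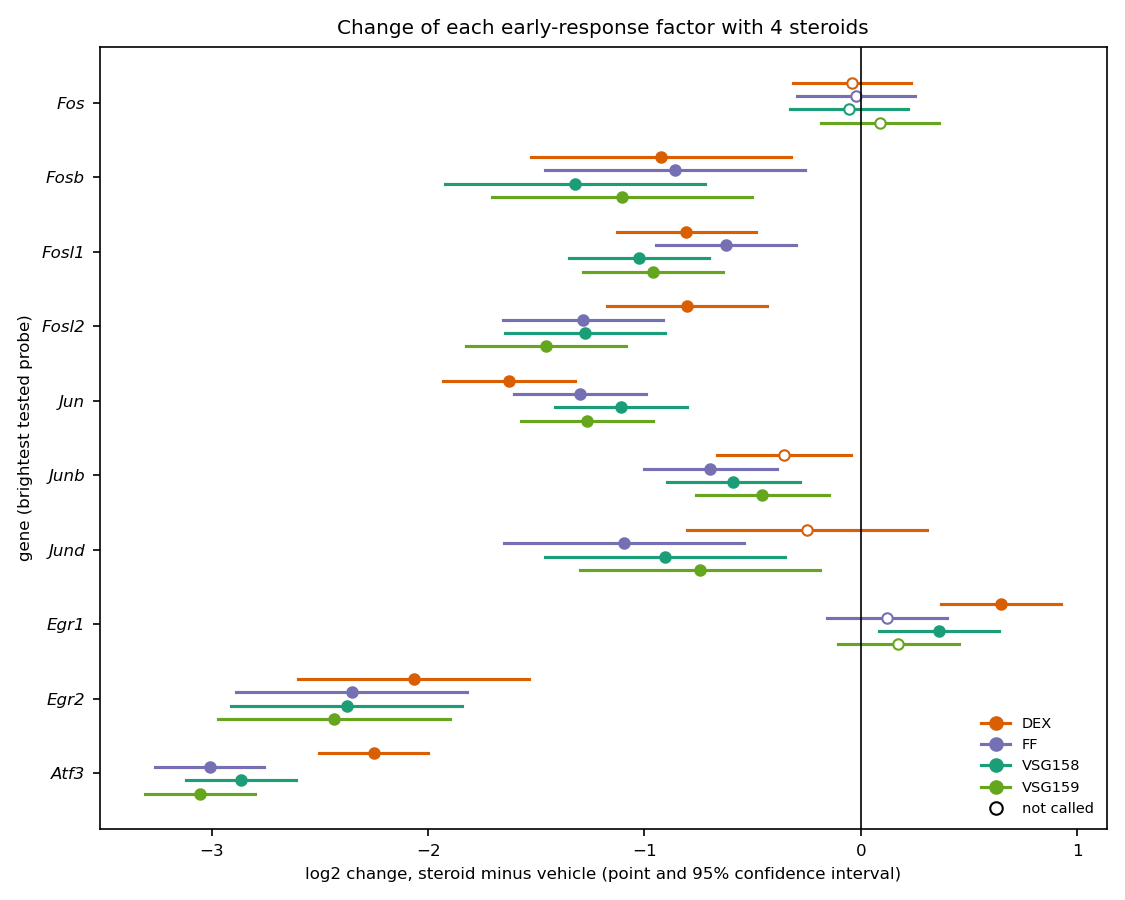
Log2 change of each gene with each steroid against vehicle (horizontal axis, steroid minus vehicle), with 95% confidence intervals from limma; open points did not pass the adjusted threshold of 0.05. Atf3 reached -3.05 with VSG159, Fos stayed within 0.09 of 0, and Egr1 lay right of 0.

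Among the Fos family, which supplies the partners of Jun proteins in AP-1, Fos itself did not pass the test while Fosb, Fosl1 and Fosl2 fell with every steroid. Fos (A_55_P2910184, chr12:86818118-86818177, mm9) had levels of 1.40, 1.58 and 1.55 with DEX, 1.37, 1.72 and 1.50 with FF, 1.54, 1.62 and 1.32 with VSG158, 1.53, 1.67 and 1.72 with VSG159 and 1.65, 1.35 and 1.64 with vehicle. All 5 groups overlapped. The 95% confidence intervals of its change were -0.31 to 0.23 under DEX, -0.29 to 0.25 under FF, -0.33 to 0.22 under VSG158 and -0.18 to 0.36 under VSG159, and the F test gave an adjusted p of 0.824 (limma). These intervals bound the changes the arrays leave room for and do not show that Fos did not differ.

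Fosl1, which encodes FRA1, a Fos protein without the transactivating end of FOS, had levels of 0.13, 0.29 and 0.16 with DEX, 0.63, 0.21 and 0.28 with FF, 0.00, -0.10 and 0.02 with VSG158, 0.02, -0.02 and 0.11 with VSG159 and 0.98, 1.31 and 0.70 with vehicle (A_51_P308796, chr19:5455496-5455555, mm9). Every steroid array lay below every vehicle array. Fosl1 fell in each comparison, at -0.81 ± 0.15 for DEX, -0.62 ± 0.15 for FF, -1.03 ± 0.15 for VSG158 and -0.96 ± 0.15 for VSG159 (log2 ± SE), with adjusted p of 8.46e-04, 0.00452, 1.28e-04 and 2.10e-04 by limma. The FF call was lost with slide as a fixed block (-0.73, adjusted p 0.0567).

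Fosl2, which encodes FRA2, fell on both of its tested probes. On the brighter, A_55_P2803815, levels were 1.67, 1.40 and 1.55 with DEX, 1.04, 1.07 and 1.07 with FF, 1.12, 1.37 and 0.72 with VSG158, 0.72, 0.72 and 1.22 with VSG159 and 2.38, 2.22 and 2.44 with vehicle. The steroid and vehicle arrays did not overlap, and the DEX arrays were the highest of the steroid arrays. The changes were -0.80, -1.28, -1.28 and -1.45 (DEX, FF, VSG158 and VSG159), with adjusted p from 2.29e-05 to 0.00219. On the other probe, whose stretch starts at base 738, they were -1.04, -1.62, -1.61 and -1.90, all called. That probe was well above background on 2 DEX, 3 FF, 1 VSG158, 1 VSG159 and 3 vehicle arrays. Its DEX call was lost without DEX replicate 3 (adjusted p 0.0555) or vehicle replicate 2 (0.0518).

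Fosb, a Fos protein close to FOS in build, gave a dim signal, well above background on 0 of 3 DEX, 2 FF, 1 VSG158 and 1 VSG159 arrays and on 3 of 3 vehicle arrays (A_55_P2113051, chr7:19888168-19888227, mm9). Levels were -4.22, -4.89 and -4.00 with DEX, -3.95, -4.45 and -4.52 with FF, -4.46, -5.18 and -4.68 with VSG158, -4.39, -5.02 and -4.25 with VSG159 and -3.33, -3.40 and -3.61 with vehicle. All vehicle arrays were above all steroid arrays. Against DEX, where no array was well above background, the signal was at least 1.56-fold lower than in vehicle, taking the higher of the probe's signal and the dimmest signal above background as the DEX level (adjusted p 0.0160). The fitted changes were -0.86 with FF, -1.32 with VSG158 and -1.10 with VSG159 (adjusted p 0.0241, 0.00189 and 0.00593). The DEX call was lost without DEX replicate 2 (adjusted p 0.0690) or vehicle replicate 1 (0.0515). The FF call was lost without FF replicate 2 (0.0771) or 3 (0.0855) and without vehicle replicate 1 (0.0721) or 2 (0.0639). It was also lost with slide as a fixed block (0.0568), median scaling (0.106), quantile normalization (0.0894), normexp (0.124), no filter (0.0590) and in the deposited value table (0.127). In the value table and with slide and position as terms the DEX (0.0632 and 0.993) and VSG159 (0.0609 and 0.703) calls were lost too, as was the DEX call with median scaling (0.0559).

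In the Jun family, Jun fell with all 4 steroids, and Junb and Jund fell with FF, VSG158 and VSG159 on their brightest probes. Jun, which gives the classical and strongest activating AP-1 subunit of the family, had levels of 1.75, 2.21 and 1.72 with DEX, 2.15, 2.37 and 2.15 with FF, 2.38, 2.41 and 2.44 with VSG158, 2.37, 2.07 and 2.32 with VSG159 and 3.67, 3.49 and 3.39 with vehicle (A_55_P2158990, chr4:94716928-94716987, mm9). The highest steroid array lay below the lowest vehicle array, so the groups did not overlap. Jun was 3.09-fold lower under DEX, 2.46-fold under FF, 2.16-fold under VSG158 and 2.41-fold under VSG159, with limma adjusted p of 2.44e-06, 1.16e-05, 4.34e-05 and 1.42e-05. This is the gene whose promoter stretch above holds the variant element, and no other variant was searched.

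Junb, often an antagonist of JUN on the same sites, was called on its brighter probe in 3 comparisons of 4. That probe, A_51_P159194, had levels of 7.0, 7.18 and 7.59 with DEX, 6.95, 6.85 and 6.95 with FF, 7.04, 6.97 and 7.05 with VSG158, 7.34, 7.15 and 6.97 with VSG159 and 7.54, 7.57 and 7.73 with vehicle. DEX replicate 3 reached the vehicle range and the other steroid arrays stayed under it. The changes were -0.35, -0.70, -0.59 and -0.46 (DEX, FF, VSG158 and VSG159), with limma adjusted p of 0.0562, 0.00158, 0.00458 and 0.0193. Without DEX replicate 3 the DEX change was -0.52 (adjusted p 0.00561), and without VSG159 replicate 3 its adjusted p was 0.0461. The VSG159 call was lost without VSG159 replicate 3 (adjusted p 0.0620) or vehicle replicate 3 (0.0664). Fitted with slide as a fixed block, the changes were -0.08, -0.42, -0.59 and -0.37, and of these VSG158 was called.

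The other Junb probe, A_55_P2011106, moved further than the brighter one. Its levels were -1.61, -1.60 and -1.51 with DEX, -1.41, -1.61 and -1.57 with FF, -1.64, -1.30 and -1.75 with VSG158, -1.95, -1.82 and -1.29 with VSG159 and 0.03, 0.24 and -0.28 with vehicle. All 12 steroid arrays lay below all 3 vehicle arrays. It was called in all 4 comparisons, at -1.57, -1.52, -1.56 and -1.68 (adjusted p 1.25e-05 to 2.81e-05). The difference between the 2 probes within an array was 8.26 to 9.29 log2 units on the 12 steroid arrays and 7.33 to 8.01 on the 3 vehicle arrays, a shift of 1.06. An exact two-sided permutation test over the arrays gave p = 0.0044, the smallest that its 455 splits can give, and 0.0132 after adjustment over the 3 genes compared this way. The test pooled the 4 steroids and took no account of slide, although all 3 vehicle arrays lay on slide 1. These 3 comparisons were made after the values were seen. A ratio within an array shows that the probes changed unequally and does not say which reads the transcript better.

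Jund, the Jun gene expressed most steadily in resting cells, showed the same divergence. The brighter probe, A_55_P2892246, had levels of 5.60, 5.92 and 5.86 with DEX, 4.68, 4.98 and 5.19 with FF, 5.15, 5.07 and 5.19 with VSG158, 5.69, 5.61 and 4.59 with VSG159 and 5.77, 6.13 and 6.23 with vehicle. The DEX arrays overlapped with vehicle, and within VSG159 the 2 arrays on slide 1 lay over 1 log2 unit above the array on slide 2. The changes were -0.25, -1.09, -0.91 and -0.74 (DEX, FF, VSG158 and VSG159), with limma adjusted p of 0.444, 0.00395, 0.0117 and 0.0313. With slide as a fixed block, which only VSG159 bridges, they were 0.81, -0.03, -0.91 and -0.39, with adjusted p of 0.0377, 0.943, 5.44e-04 and 0.0793, so the sign of the DEX change turned. Within slide 1 the VSG159 change was -0.39 (adjusted p 0.0848). The VSG159 call was also lost without VSG159 replicate 3 (0.0788) or vehicle replicate 2 (0.0862) or 3 (0.0957).

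The other Jund probe, A_51_P357744, which starts 134 bases further along the chromosome, separated every steroid array from vehicle. Its levels were 3.28, 3.35 and 3.24 with DEX, 3.28, 3.10 and 3.14 with FF, 3.01, 2.99 and 2.72 with VSG158, 2.76, 2.69 and 3.42 with VSG159 and 4.85, 5.15 and 4.63 with vehicle. Here VSG159 replicate 3 was the highest steroid array, whereas it was the lowest on the brighter probe. The changes were -1.59, -1.70, -1.97 and -1.92, all called by limma (adjusted p 3.90e-06 to 2.75e-05), and -2.29, -2.40, -1.97 and -2.15 with slide as a fixed block. The within-array difference of the probes was 1.05 larger with steroid than with vehicle, larger on 10 of 12 steroid arrays than on any vehicle array (exact permutation test, two-sided p = 0.0176, adjusted 0.0264). For Fosl2 the same shift was 0.34 (p = 0.207, exact permutation). With all tested probes of a gene averaged, an alternative added after the values were seen, 9 genes were called with DEX, Junb at -0.96 and Jund at -0.92 among them.

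**Figure D3:**
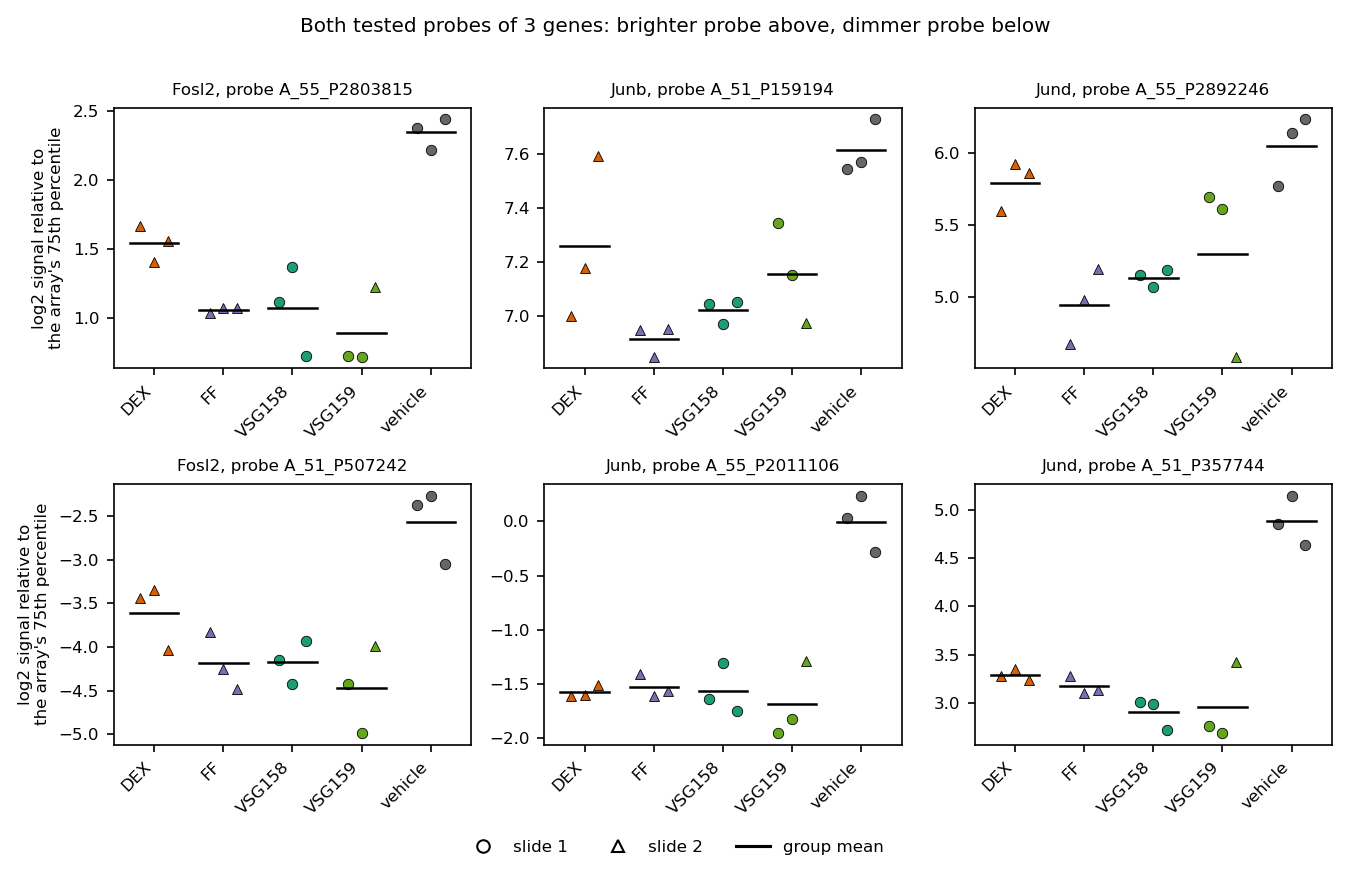
Log2 signal relative to the array's 75th percentile for both tested probes of Fosl2, Junb and Jund, the brighter above and the dimmer below; points are arrays (circles on slide 1, triangles on slide 2) and bars are means of 3. The lower Junb and Jund panels show all 12 steroid arrays below vehicle, while in the upper panels DEX arrays reach the vehicle range.

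Egr2 and Egr1, which encode related zinc finger factors that bind the same GC-rich site, did not move together. Egr2 levels were -0.67, -1.07 and -0.91 with DEX, -1.09, -1.16 and -1.27 with FF, -0.95, -0.88 and -1.76 with VSG158, -1.42, -1.58 and -0.76 with VSG159 and 1.34, 1.10 and 1.11 with vehicle (A_51_P173043, chr10:67004758-67004817, mm9). Vehicle arrays were all above the array's 75th percentile and steroid arrays all below it. Egr2 was 4.19-fold lower under DEX, 5.11-fold under FF, 5.20-fold under VSG158 and 5.41-fold under VSG159, with limma adjusted p of 3.19e-05, 8.76e-06, 8.42e-06 and 6.76e-06. The log2 changes with slide as a fixed block were -2.81, -3.09, -2.38 and -2.68, all called.

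Egr1 was higher with DEX than with vehicle. Its levels were 3.46, 3.12 and 3.30 with DEX, 2.76, 2.80 and 2.73 with FF, 2.88, 3.11 and 3.02 with VSG158, 2.92, 2.55 and 2.98 with VSG159 and 2.75, 2.52 and 2.65 with vehicle. The DEX and VSG158 arrays lay above vehicle, and FF and VSG159 overlapped with it. Egr1 rose by 0.65 ± 0.13 with DEX and 0.36 ± 0.13 with VSG158 (log2 ± SE, limma adjusted p 0.00135 and 0.0356). The FF and VSG159 values were 0.12 and 0.17 (95% confidence intervals -0.16 to 0.40 and -0.10 to 0.45). The DEX call was not kept with slide as a fixed block (0.40, adjusted p 0.163), with slide and position as terms (0.80, 0.667), with normexp and quantile normalization (0.32, 0.149) or in the deposited value table (0.30, 0.206). The VSG158 comparison lies within 1 slide, and its call was lost without VSG158 replicate 2 or 3 or vehicle replicate 2 or 3 (adjusted p 0.0694 to 0.123). The VSG158 call was also lost with median scaling (0.30, adjusted p 0.342) and with normexp and quantile normalization (0.34, 0.128). It was lost too in the deposited value table (0.31, 0.189) and with no filter (0.36, 0.129). Fitted on slide 1 alone, the VSG158 comparison had an adjusted p of 0.0748.

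Atf3 is a repressor that curbs Toll-like receptor responses in macrophages. With group as the only term, it showed the largest fall of the 10 genes with every steroid. Its levels were 3.96, 4.14 and 4.19 with DEX, 3.34, 3.26 and 3.41 with FF, 3.45, 3.37 and 3.62 with VSG158, 3.35, 3.11 and 3.42 with VSG159 and 6.24, 6.50 and 6.30 with vehicle (A_52_P452689, chr1:192994547-192994606, mm9). The highest steroid array lay over 2 log2 units below the lowest vehicle array, and the DEX arrays lay above those of the other 3 steroids. Atf3 was 4.76-fold lower under DEX, 8.06-fold under FF, 7.29-fold under VSG158 and 8.31-fold under VSG159. The log2 changes were -2.25, -3.01, -2.87 and -3.05, each with an SE of 0.12, and the limma adjusted p were 5.84e-08, 4.29e-09, 6.43e-09 and 3.86e-09. They were -2.45, -3.21, -2.87 and -3.12 with slide as a fixed block. In that fit Egr2 fell further than Atf3 with DEX, at -2.81.

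The 4 steroids were compared in all 6 pairs, at the same dose and time, and the members that differed were Atf3 and Egr1. Atf3 was lower than with DEX under each other steroid, with log2 differences of -0.76 for FF (95% confidence interval -1.01 to -0.51, limma adjusted p 0.00815), -0.61 for VSG158 (-0.87 to -0.36, 0.0198) and -0.80 for VSG159 (-1.06 to -0.55, 0.00465). Egr1 was lower with FF than with DEX, at -0.53 (-0.81 to -0.25, 0.0430). Thus 2, 1 and 1 of the 10 genes were called against DEX (FF, VSG158 and VSG159), where 4.18%, 2.14% and 4.87% of all genes were called. Fosl2 was -0.65 with VSG159 against DEX (adjusted p 0.0504) and Jun was 0.52 with VSG158 against DEX (0.0793), neither past the threshold. Jun was the gene with its lowest steroid mean in the DEX group, 1.89 log2, against 2.22, 2.41 and 2.25 with FF, VSG158 and VSG159.

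The calls against DEX were less settled than those against vehicle. The Egr1 call was lost on leaving out any of 10 arrays (adjusted p 0.0503 to 0.143). These were FF 1, 2 or 3, VSG158 1 or 2, VSG159 1, DEX 1 or 3, and vehicle 1 or 2. The Egr1 call was also lost with median scaling (-0.45, adjusted p 0.495), quantile normalization (-0.42, 0.119) and no filter (-0.53, 0.206). With normexp and quantile normalization, and in the deposited value table, the Egr1 difference shrank to -0.07 in each (0.847 and 0.864). The Atf3 call of VSG158 against DEX was lost without VSG158 1 or 2 or DEX 2 or 3 (0.0552 to 0.102), while those of FF and VSG159 were kept without any 1 array. With slide as a fixed block the Atf3 calls of VSG159 (-0.67, adjusted p 0.0530) and VSG158 (-0.42, 0.237) were lost and that of FF was kept. In the same fit Jund was called lower than with DEX, at -0.84 for FF (0.0155), -1.72 for VSG158 (0.0216) and -1.20 for VSG159 (0.0348). VSG158 shares no slide with DEX, and on the slide that holds VSG159 replicate 3 and DEX the Atf3 difference had an adjusted p of 0.0722. The Atf3 call of FF was lost with median scaling (0.248), no filter (0.0530), or slide and position as terms (0.274). Without VSG159 replicate 3, Jund was called with FF against DEX (-0.84, adjusted p 0.0166) and with VSG158 against DEX (-0.66, 0.0466), Fosl2 with VSG159 against DEX (-0.82, 0.0198) and Egr1 with VSG159 against DEX (-0.56, 0.0374). Without DEX replicate 2, Jun was called with VSG158 (0.67, 0.0227) and VSG159 (0.52, 0.0419) against DEX. FF and DEX lie on 1 slide; there Atf3 was called and Egr1 was not (adjusted p 0.0539).

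Between FF, VSG158 and VSG159, 0 of the 10 genes were called by limma in each of the 3 pairs, where 0% of all genes were called. At an unadjusted p under 0.05 there was 1 gene with VSG158 against FF, 1 with VSG159 against FF and 0 with VSG158 against VSG159. That gene was Fosl1 both times, at -0.40 (95% confidence interval -0.73 to -0.08) and -0.34 (-0.66 to -0.01). For Atf3 the differences were 0.15 (-0.11 to 0.40) for VSG158 against FF, -0.04 (-0.30 to 0.21) for VSG159 against FF and 0.19 (-0.06 to 0.44) for VSG158 against VSG159. The intervals were widest for Fosb and Jund, for example -0.37 to 0.74 for Jund with VSG158 against FF, so differences of that size were not detectable with 3 arrays a group.

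**Figure D4:**
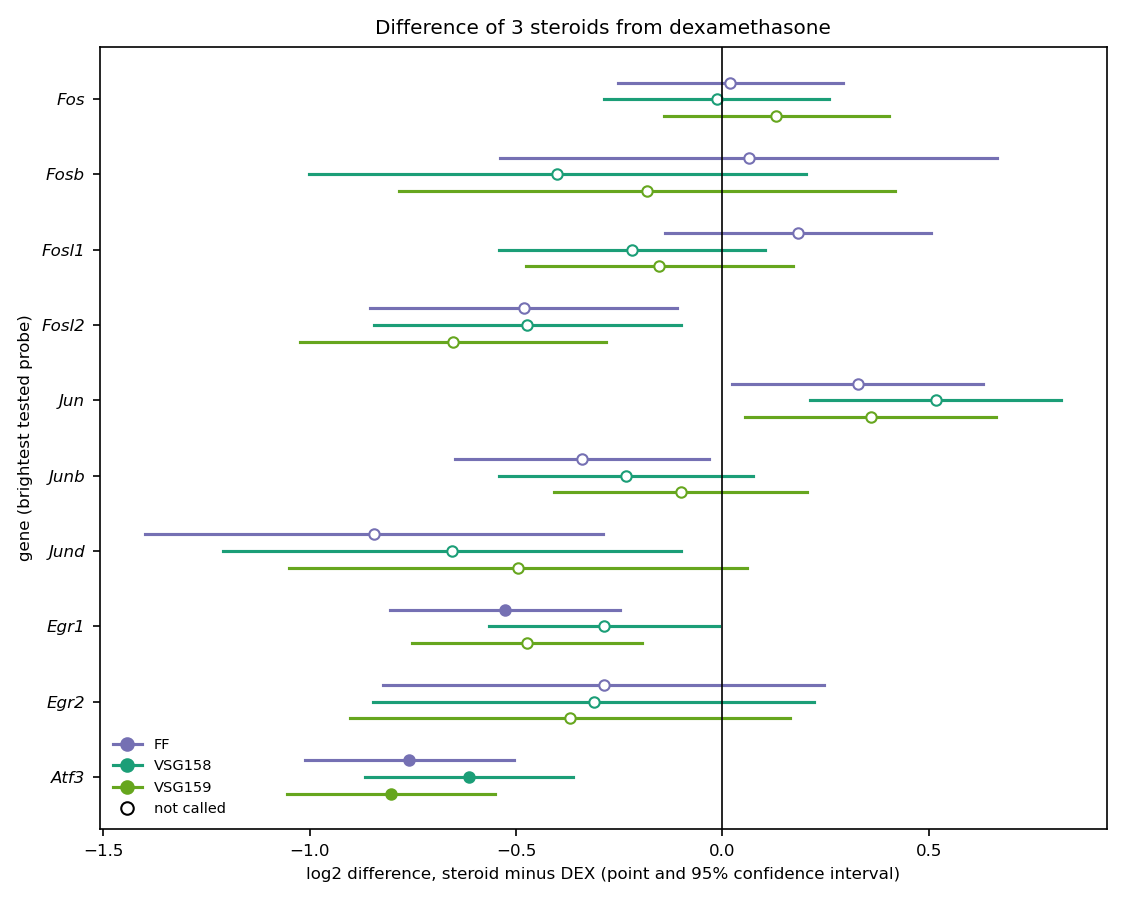
Log2 difference of FF, VSG158 and VSG159 from DEX for each gene (horizontal axis, steroid minus DEX), with 95% confidence intervals from limma; open points did not pass the adjusted threshold of 0.05. Filled points are Atf3 with all 3 steroids and Egr1 with FF, and the Jun points lie right of 0.

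The genes around these factors were read from 5 lists, 91 measured genes of 94 listed, chosen with earlier results of these data known. Over all 5 lists 49 fell and 10 rose under DEX, 53 and 7 under FF, 52 and 8 under VSG158 and 56 and 8 under VSG159. Of all genes, 23.3%, 21.5%, 24.8% and 25.1% were called lower and 23.4%, 21%, 19.9% and 19.2% higher (DEX, FF, VSG158 and VSG159). The counts of each list below are to be read beside these shares. The median change of the 91 list genes was -0.41, -0.56, -0.57 and -0.63 in the same order, beside 0.03, -0.05, -0.06 and -0.06 over all genes. With arrays scaled on their medians 37 list genes were called with DEX in place of 59, and with slide and position as terms 1, 18 and 30 were called with DEX, FF and VSG159.

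Among 13 zipper partners and inhibitors of AP-1, 6 fell and 3 rose with each steroid. Maf, a large Maf protein that pairs with Fos and Jun, fell to 0.47, 0.26, 0.37 and 0.41 (log2 level, DEX, FF, VSG158 and VSG159), against 2.78 with vehicle. In the same order of steroids Batf2 fell, at -2.15, -2.25, -2.37 and -2.15. Jdp2, which encodes a repressor that pairs with Jun proteins, rose by 1.72, 1.67, 1.50 and 1.43 in that order. Batf3, a Jun partner known for its role in dendritic cells, was not well above background on any vehicle array, and its signal was at least 12.8-fold higher under DEX, 12.6-fold under FF, 10.6-fold under VSG158 and 9.21-fold under VSG159 (limma adjusted p 1.54e-07 to 4.04e-07). The 3 of 13 that rose lie near the share of all genes called higher. The Fos and Jun genes called with group as the only term all fell.

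Of 14 relatives of ATF3 in the ATF, CREB and C/EBP families, 1 rose and 4 fell with DEX, and 1 rose and 5 fell with each of the other 3 steroids. Crem, which gives cyclic AMP-responsive activators and repressors, fell, at -1.64, -1.77, -1.91 and -1.97 (DEX, FF, VSG158 and VSG159). Ddit3, the stress factor CHOP, fell, at -0.43, -0.79, -0.69 and -0.89 and Creb1 at -0.38, -0.43, -0.57 and -0.48. Cebpa, a myeloid differentiation factor, rose by 0.60, 1.11, 0.94 and 0.86. The median change of this list was -0.07, -0.21, -0.20 and -0.22, nearer to that of all genes than that of the 10 factors.

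Of 21 other immediate-early genes measured, 14, 17, 16 and 17 fell and 1, 0, 1 and 1 rose (DEX, FF, VSG158 and VSG159), with medians of -0.88, -1.06, -1.16 and -1.22. The single rise was Nr4a2, a nuclear receptor gene, named after its values were seen, at 0.49, 0.50, 0.58 and 0.64, which did not pass the test with FF. Ier3, a survival gene of stressed cells, fell, at -1.38, -2.06, -1.88 and -2.33, and Gadd45b, a stress sensor that feeds MAP kinases, at -1.85, -1.92, -1.76 and -1.86. Phlda1 fell, at -0.86, -1.22, -1.35 and -1.60 and the zinc finger factor Klf6 at -0.93, -1.23, -1.21 and -1.22. Against DEX, 4, 2 and 7 of the 21 were called lower (FF, VSG158 and VSG159). Of all genes, 4.18%, 2.14% and 4.87% were called in either direction. Ier3 and Phlda1 were called lower in each comparison, Ier3 at -0.68, -0.50 and -0.94. Both were named by the F test over all groups, which favours differences between groups.

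Upstream of these genes, 25 genes for SRF, its cofactors and MAP kinases were measured, of which 13, 12, 12 and 13 fell and 2, 1, 1 and 1 rose (DEX, FF, VSG158 and VSG159). Mrtfb, an actin-controlled cofactor of SRF, fell, at -1.0, -1.03, -1.16 and -1.10 (DEX, FF, VSG158 and VSG159). Rps6ka4, which encodes the chromatin kinase MSK2, fell, at -0.92, -0.79, -1.05 and -0.96. The kinase genes Map2k1 and Map3k1 fell, at -0.52, -0.80, -0.88 and -0.85 and at -0.47, -0.90, -0.84 and -0.86. Transcript levels of kinases do not measure their activity.

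Of 18 measured targets of AP-1, EGR and ATF3 and co-repressors of EGR, 12, 13, 13 and 15 fell and 3, 2, 2 and 2 rose (DEX, FF, VSG158 and VSG159). The genes that rose were named after their values were seen. In the same order Ccnd1 rose by 1.41, 1.64, 1.54 and 1.51 and Mmp9 by 0.89, 0.84, 0.55 and 0.58. F3 was called higher with DEX alone, at 1.77. Mmp13, a collagenase gene with a classical AP-1 site, fell, at -4.08 under DEX, -5.39 under FF, -5.45 under VSG158 and -5.48 under VSG159, well above background on 2 of 3 FF and 2 of 3 VSG158 arrays. Hmox1, the heme oxygenase gene, fell, at -1.72, -2.38, -2.26 and -2.49, Vegfa at -1.64, -2.28, -2.28 and -2.47 and the cytokine gene Il6 at -1.01, -2.26, -2.0 and -2.38. Against DEX, 8, 5 and 10 of the 18 were called lower and 0 higher (FF, VSG158 and VSG159), where 4.18%, 2.14% and 4.87% of all genes were called. Mmp13, Hmox1, Vegfa and Il6 were among them in each comparison, Il6 at -1.25, -0.99 and -1.38. These 4 targets were chosen by the F test over all groups and so favour differences between groups. The comparisons with vehicle share the vehicle arrays and those with DEX share the DEX arrays, so their values are given side by side only.

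**Figure D5:**
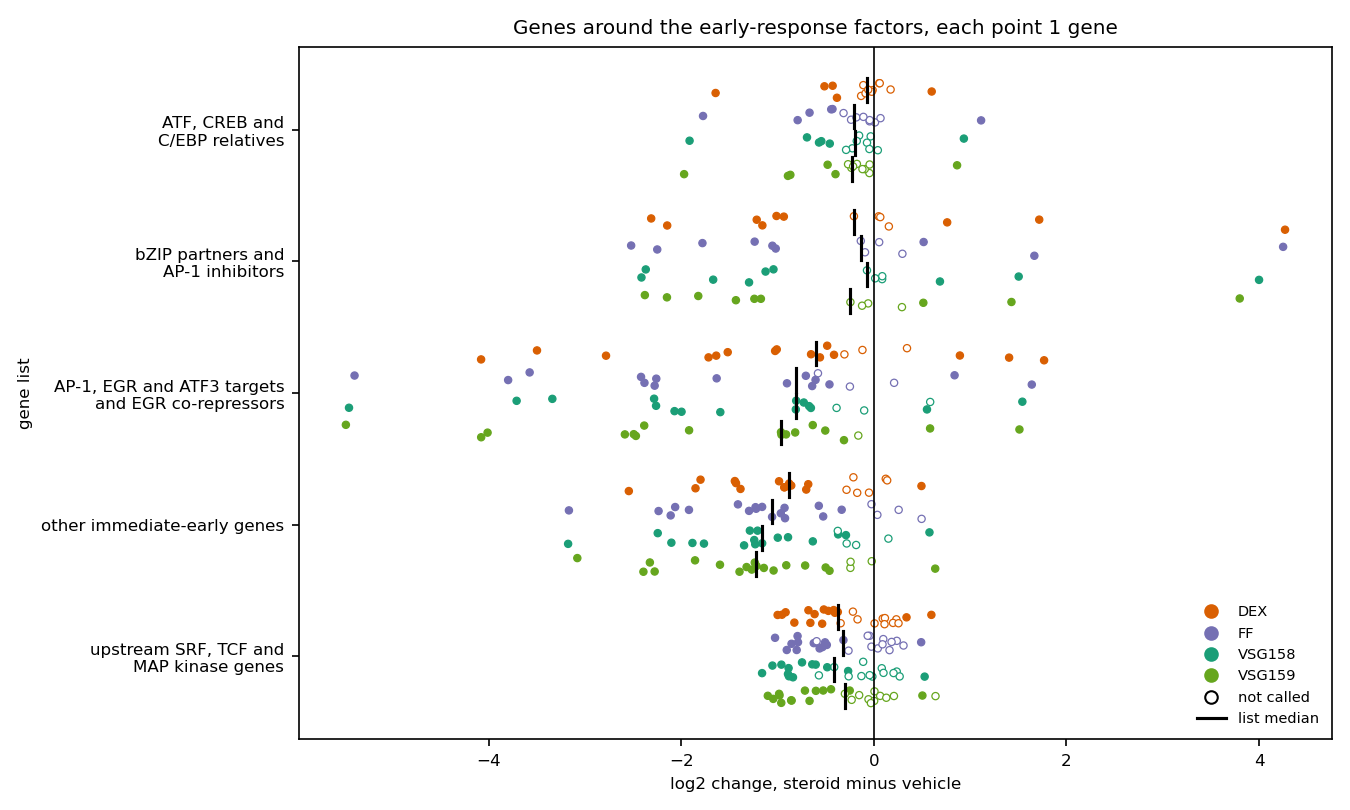
Log2 change against vehicle of each measured gene in the 5 lists (horizontal axis, steroid minus vehicle), 1 row of points for each steroid from DEX at the top to VSG159; filled points were called, open points were not, and black bars are list medians. The medians of the other immediate-early genes lie between -0.88 and -1.22, and Batf3 is the point near 4.

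For each of the 9 genes called by the F test, the genes with the most similar pattern were found as those with the smallest root mean square difference over the 15 arrays after centring, among 12510 genes. Nearest to Atf3 were Tbc1d9, Ccrl2 and Cd83 (0.14 log2 each, where the median gene differed by 1.18). Nearest to Egr2 were Ier5, Kctd12 and Osm (0.13 to 0.15, median 0.99), of which Ier5 is itself an immediate-early gene. Nearest to Jun were Nceh1, Sfmbt1 and Arl6ip1 (0.11 to 0.14, median 0.64). Their lowest mean was also with DEX, which largely follows from choosing them by Jun's pattern. Nearest to Fosl2 were Kdm3a, Osgin2 and Suco (0.077 to 0.092) and to Fosb Aplp1, Zswim4 and Cd74 (0.22 to 0.26). Among the nearest to Fosl1 were Atxn7l3 and Rabggta (0.115 and 0.117). Nearest to Junb were Slc1a4, Prdx1 and Spag7 (0.10 to 0.11) and to Jund Synj1, Serpinb6e and Zfp707 (0.20 to 0.21). Nearest to Egr1 were Lrrc58, Mbip and Ncoa4 (0.085 to 0.099), which were 0.55, 0.66 and 0.47 with DEX against vehicle. These differences are descriptions over arrays that share slides and scaling. Each gene was chosen for following its member on these arrays. A shared pattern, such as the rise of the Egr1 neighbours with DEX, is therefore no separate evidence.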

How the data were processed

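RAW264.7 cells were profiled on 15 one-colour arrays in 5 groups of 3, and titles gave each array its group and number. Scanner output came from Feature Extraction 10.7.3.1, per the file headers. The deposited processed signal is an intensity that is background-subtracted and detrended within 1 array, and the deposited mean signal and local background are raw intensities. Flags of 0 or 1 for background, saturation and outlier spots are deposited beside them, and per the file headers the scanner software set them. The deposited value table holds log2 values of the same arrays; per the submitters' processing notes limma was used, with no version given. It serves as an alternative alone.

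Control spots (3671 of the 62976 on an array) were removed. Outlier spots were set to missing, spots of a probe averaged, and processed signals were taken to log2 after scaling to the 75th percentile of each array. Probes well above background on at least 2 of 3 arrays of 1 group were tested (28386 probes, 19400 genes). All 15 arrays were fitted with limma 3.58.1 in R 4.3.3, with group as the only term. Tests were two-sided and Benjamini-Hochberg adjusted within each of 10 contrasts over all tested probes. An exact test of 3 arrays against 3 cannot go below 0.1. The fit was tested on simulated data. The named genes are the 10 members with every probe, up to 4 genes of each list by smallest adjusted p of the F test, the 3 most similar genes for each member called by the F test (1 is not reported here), and Fkbp5 and Hp. Nr4a2, Ccnd1, Mmp9 and F3 were named in addition, after their values were seen. The members and lists were chosen with earlier results of these data known. Replicate numbers were not taken to pair the samples. Of 30 same-number pairs of arrays, 7 had deviations from their group means that correlated over 0.1. Most of these were replicate 3 pairs without VSG159, at 0.17 to 0.28. The replicate 3 pairs with VSG159 ran from -0.51 to -0.28. The count therefore does not settle whether the samples were paired.

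Alternatives were other scalings, background corrections, filters, probe rules, slide and replicate terms, and leaving out each array.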

Additional observations from a re-analysis of the deposited data

How the results depend on the processing

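Each of 210 changes (13 member probes in 10 contrasts, 20 list genes in 4) was recomputed under the alternatives, 5858 times in all. The side of the threshold was kept 5663 times, 164 calls were lost, 27 were gained, and 4 signs turned where 1 of the values was called. The 5663 include 161 sign turns between values that were not called. The cause of these moves was not tested. With slide as a fixed block, the brighter Jund probe turned to 0.81 with DEX against vehicle. With slide and position as terms, Creb1 turned to 0.16, Fosb to 0.0619 and the dimmer Fosl2 probe to 0.70 with DEX, none of them called; 64 calls were lost in that fit, where position nearly follows group. In it 0 members were called with DEX against vehicle, 1 with FF and 4 with VSG159, and 1, 18 and 30 list genes. With slide as a fixed block 4 members were called with FF. Median scaling left 37 list genes called with DEX. Of the members against DEX, FF had 2 calls, which became 0 with median scaling, no filter, or slide and position, and 1 with quantile normalization, normexp, the deposited value table, the 2 groups alone, the slide that holds both, or replicate number as a block; leaving out 1 array gave 1 to 3. Slide as a block gave 3. With slide as a fixed block the counts of VSG158 and VSG159 against DEX stayed at 1 with another gene, Jund in place of Atf3. VSG158 had 1 call, which became 0 with median scaling, quantile normalization, normexp, the value table, no filter, the 2 groups alone, slide as a random block, or slide and position, 2 with probes averaged, and 0 to 2 leaving out 1 array. VSG159 had 1 call, which became 0 with median scaling, the 2 groups alone, the shared slide, or slide and position, 2 with normexp, the value table, 1 probe a gene or probes averaged, 3 with a filter on all 3 arrays, and 1 to 3 leaving out 1 array. Where a count became 0, limma gave 0 to 4 members at an unadjusted p under 0.05. The replicate block changed no other count of members. Of 15 arrays 1 correlated best with an array of its own replicate number. Dim probes limit Fosb, which was above background on 7 arrays.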
